A study of Homo sapiens with 6 samples.

Results

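The 12 mature arms of miR-146a, miR-146b, miR-155, miR-132, miR-212 and miR-9, miRNAs that inflammatory signals and bacterial products induce, were followed in exosomes, the small vesicles that cells shed into their medium. They were chosen by name, as every arm of those 6 hairpins listed in the deposited tables, and make up 12 of the 2575 mature miRNA entries. The exosomes came from HCT116, a human colorectal cancer line. ETBF, the enterotoxigenic form of the gut anaerobe Bacteroides fragilis, secretes a toxin. There were 3 libraries titled as treated with it for 6 h, from cells kept with the bacterium at a multiplicity of infection of 500, and 3 titled untreated, whose cells received bacterial medium without the bacterium. All 6 came from the same line, so the values describe 1 cell line. The vesicles were pelleted by centrifugation from conditioned medium, and nothing states that the replicates were separate cultures. The names of the deposited files give the opposite group to the titles in all 6 libraries. The titles set the groups used below. Should the file names hold instead, every "higher" becomes "lower" and no size, error or p-value changes.

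NF-kappaB is a transcription factor held in the cytoplasm by its inhibitors and freed when Toll-like receptors or cytokine receptors are engaged. miR-146a is among its best known miRNA targets in feedback. Both miR-146a and miR-146b repress IRAK1 and TRAF6, proteins that carry the receptor signal. miR-155, cut from the non-coding transcript BIC, represses the inhibitors SOCS1 and INPP5D and thereby favours inflammation. miR-132 and miR-212 are made from one transcript that CREB induces, and miR-9 is induced by bacterial products in human monocytes and neutrophils, where its 5p arm represses NFKB1. In epithelial cells of the colon the B. fragilis toxin leads to cleavage of E-cadherin and to activation of NF-kappaB.

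The arms on which the values turn are printed below from RefSeq (GRCh38.p14), all 12 having matched by name, with the seed, bases 2 to 8 from the 5′ end, in capitals. The seed sets which messenger RNAs a miRNA recognises, so arms with the same capitals can bind the same sites.
miR-9-5p: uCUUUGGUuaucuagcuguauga
miR-9-3p: aUAAAGCUagauaaccgaaagu
miR-132-3p: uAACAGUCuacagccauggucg
miR-212-3p: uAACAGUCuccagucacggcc
miR-146a-5p: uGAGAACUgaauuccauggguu
miR-146b-5p: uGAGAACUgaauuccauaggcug
miR-155-5p: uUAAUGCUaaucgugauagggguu
miR-146a-5p and miR-146b-5p have the same seed and the same first 17 bases, and differ by G18A and U21C, with positions counted from the 5′ end of miR-146a-5p and its base first, and by 1 further base at the end of miR-146b-5p. miR-132-3p and miR-212-3p share the seed and the first 9 bases and differ by A10C, C14U, U17C and U20C, counted in the same way from miR-132-3p. Both arms of miR-9 have seeds that no other entry of the tables matched in RefSeq carries.

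miR-9 is the only one of the 6 with several loci, and its 3 hairpins are shown with both mature arms in capitals, because the way their reads were counted bears on every miR-9 value below.
MIR9-1: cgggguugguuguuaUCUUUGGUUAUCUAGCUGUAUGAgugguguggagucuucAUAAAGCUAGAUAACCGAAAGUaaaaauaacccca
MIR9-2: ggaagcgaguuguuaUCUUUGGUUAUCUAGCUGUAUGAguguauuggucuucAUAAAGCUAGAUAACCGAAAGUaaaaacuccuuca
MIR9-3: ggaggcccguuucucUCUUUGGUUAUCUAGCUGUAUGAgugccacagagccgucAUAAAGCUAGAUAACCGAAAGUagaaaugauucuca
MIR9-1 lies at chr1:156420341-156420429 on the minus strand, MIR9-2 at chr5:88666853-88666939 on the minus strand and MIR9-3 at chr15:89368017-89368106 on the plus strand (GRCh38.p14). The capitals are the same in all 3 hairpins while the 3 loops between them differ, so a read of a mature arm cannot be given to one locus. In GENCODE release 29, MIR9-1 lies in an intron of C1orf61, MIR9-2 overlaps an exon of the non-coding gene LINC00461 and MIR9-3 lies in an intron of MIR9-3HG. The counts of both miR-9 arms were whole multiples of 3 in each of the 6 libraries. Of 183 entries with at least 30 counts and a single locus in the RefSeq table, 1 had counts that were all multiples of 3. A count of 3 for miR-9 therefore stands, as far as the numbers show, for 1 read entered at 3 loci, and miR-9 values are given below both as counts and as counts divided by 3, called reads.

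The libraries titled ETBF held 250425, 221981 and 417321 counts and those titled untreated 200207, 368923 and 293445. A count of 3, the floor used here, corresponded to 9.27 to 13.5 CPM, the count relative to the library size after TMM scaling, a correction for composition, in libraries titled ETBF and to 8.26 to 14.6 CPM in those titled untreated. For miR-9, 3 reads corresponded to 27.8 to 40.5 CPM titled ETBF and 24.8 to 43.7 CPM titled untreated. Of the gut epithelial miRNAs, read as markers of the labelled cell type, 9 of 9 had counts, and they summed to 28783 to 32366 CPM in libraries titled ETBF and 33052 to 34558 CPM in those titled untreated. Defining miRNAs of other tissues were also abundant: muscle miR-1 stood at 15807 CPM titled ETBF and 18176 CPM titled untreated, above the highest gut marker, miR-192-5p, at 8531 CPM titled ETBF and 10566 CPM titled untreated. Liver miR-122-5p stood at 4917 CPM titled ETBF and 5875 CPM titled untreated. miR-1 and miR-122-5p were named after their values were seen, and the part of such RNA in the levels of the 12 arms was not tested. Entries that overlap structural RNAs in sequence (miR-7641, miR-6087, miR-1246) took 0.531% to 0.927% of the counts titled ETBF and 16.1% to 28.3% of those titled untreated.

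Of the 12 arms, 10 had a count in at least 1 library, where 27.8% of all listed entries did. In the libraries titled ETBF 8, 9 and 9 of the arms were seen, and in each library titled untreated 7 were. Together the 12 arms made up 0.368%, 0.346% and 0.277% of the counts titled ETBF and 0.257%, 0.294% and 0.310% of those titled untreated, so the groups overlapped in their share of raw counts. In CPM, after TMM scaling, the 12 arms summed to 3090.7 to 3568.4 titled ETBF and to 2498.8 to 2990.7 titled untreated, which did not overlap. That separation depends on the TMM factors, which were 1.19, 1.00 and 0.776 titled ETBF and 1.03, 0.984 and 1.07 titled untreated. The sums also hold the miR-9 counts undivided, in which each read seems entered 3 times. Sums of the gut epithelial miRNAs did not overlap either, and were lower titled ETBF. The raw totals include the structural-RNA entries, which took 16.1% to 28.3% of counts titled untreated and 0.531% to 0.927% titled ETBF. Leaving them out would thus raise the untreated shares more than the ETBF shares. ETBF replicate 3 already lay below untreated replicates 2 and 3, so the ETBF shares would still not all lie higher. Levels differed widely between arms. hsa-miR-9-5p, hsa-miR-146b-5p and hsa-miR-146a-5p held 40.4%, 36.3% and 18.2% of all counts of the 12 arms and ranked 54, 57 and 79 by mean CPM among the 2575 entries. miR-9-5p owes part of that rank to the triple counting, since its 2163 counts stand for 389 reads in libraries titled ETBF and 332 in those titled untreated, fewer in either group than miR-146b-5p, with 1012 titled ETBF and 932 titled untreated, or miR-146a-5p, with 458 titled ETBF and 517 titled untreated. hsa-miR-132-3p with 108 counts and hsa-miR-9-3p with 105 followed, and the others were at 36 counts or fewer over all 6 libraries.

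**Figure D1:**
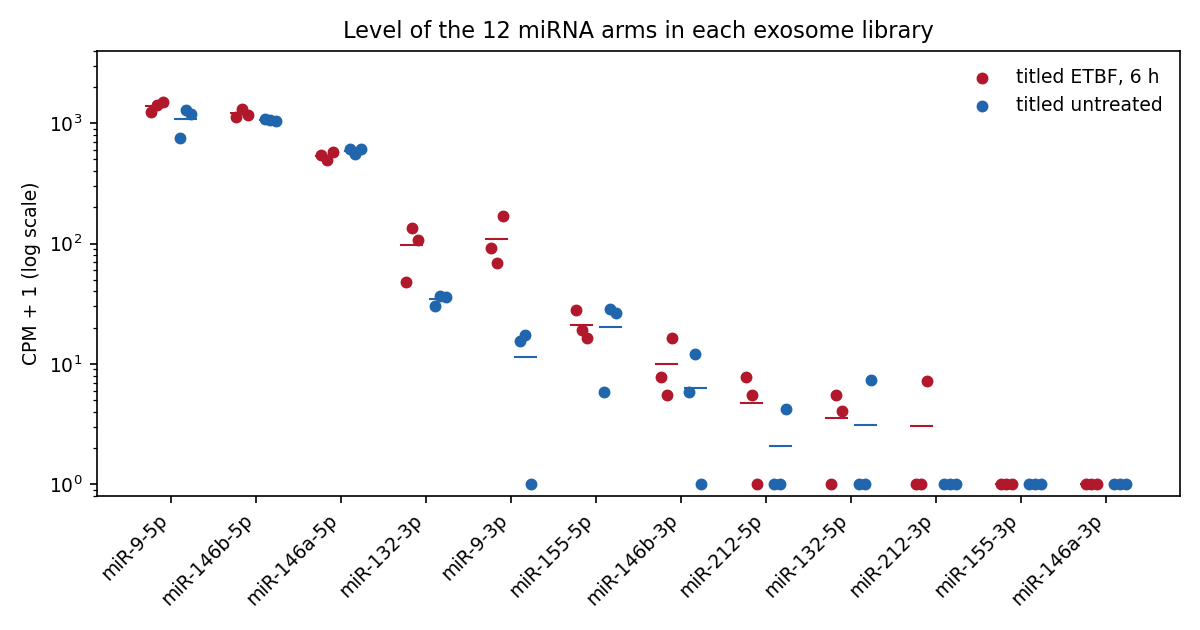
Level of each of the 12 arms as CPM + 1 on a log axis, ordered by mean level; points are libraries, 3 titled ETBF on the left of each arm and 3 titled untreated on the right, and short lines are group means. Points of miR-9-3p, miR-132-3p and miR-146b-5p lie higher titled ETBF without overlap, as was so for 19.5% of tested entries. miR-155-3p and miR-146a-3p stand at 0 in all 6 libraries.

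Enough counts for a test were present for 5 of the 12 arms, and 2 of these, miR-9-3p and miR-132-3p, were higher in libraries titled ETBF at an adjusted p under 0.05 (edgeR's quasi-likelihood test, Benjamini-Hochberg over 195 tested entries). miR-9-5p, miR-146b-5p and miR-146a-5p did not pass. Across all tested entries 14.4% passed, 28 of 195, with 10.8% higher and 3.59% lower. miR-9-3p and miR-132-3p reached the test through their counts in the libraries titled ETBF, so the share among tested arms is no support for the set. The number of entries called over the whole table was 59 without ETBF replicate 1, 17 without ETBF replicate 3 and 17 without untreated replicate 3.

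miR-9-3p, the arm known in neurones for repressing the chromatin factor BAF53a, held 27, 15 and 54 counts in the libraries titled ETBF and 3, 6 and 0 in those titled untreated. These are 9, 5 and 18 reads titled ETBF and 1, 2 and 0 reads titled untreated. Every library titled ETBF lay above every library titled untreated, as was so for 19.5% of tested entries (39% did not overlap in either direction), and the reads titled untreated, 3 in all, are at the limit of what can be seen. In CPM the level was 108.3 ± 52.0 titled ETBF and 10.4 ± 9.03 titled untreated (SD, n = 3 each). The fitted log2 fold change was 3.40 (SE 0.62, edgeR adjusted p = 0.00705). Since it depends on how values near 0 are handled, the ratio of summed reads per scaled library size is given beside it: 11.2, with an exact 95% interval of 3.49 to 56.9 that covers counting error only.

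On divided counts miR-9-3p could be tested only by keeping the entries that the undivided counts had passed. With counts divided by the number of loci and the same entries tested, its log2 fold change was 3.33 and the adjusted p 0.0058, with 18.5% of entries called. When the filter on low counts was applied again to the divided counts, miR-9-3p was no longer among the 192 entries tested. Its reads alone would thus not have admitted it to the test. miR-9-3p passed in all 16 settings that tested it, with edgeR, DESeq2 or limma-voom adjusted p from 1.27e-15 to 0.0244. Apart from the divided fit, these settings used the counts in which each read seems entered 3 times. The smallest p came from such a fit, with no filter. The number of settings passed therefore does not show that the call holds on reads. The size moved with single untreated libraries, to 2.73 without untreated replicate 3, the one with no read, and to 4.15 without untreated replicate 2. Without the structural-RNA entries, whose share differed so widely between the groups, it was 3.45 with an adjusted p of 0.00361.

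miR-9-5p, the more abundant arm of the same hairpins, stood at 1238, 1403 and 1502 CPM in the libraries titled ETBF and at 756.9, 1289 and 1188 CPM in those titled untreated. The groups overlapped, since ETBF replicate 1 lay below untreated replicate 2, and untreated replicate 1 was the lowest of all. The log2 fold change was 0.34 (SE 0.18, edgeR adjusted p = 0.21), with a 95% interval of -0.06 to 0.74, that is 0.960- to 1.67-fold. It passed in 1 of 17 settings, without ETBF replicate 1, at 0.38 with an adjusted p of 0.0433.

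Both arms are cut from the same precursors, so their ratio within a library needs no scaling between libraries. miR-9-3p made up 6.82%, 4.59% and 10% of miR-9 reads in the libraries titled ETBF and 1.89%, 1.27% and 0% in those titled untreated. The 3 ETBF shares all lay above the 3 untreated shares, with means of 7.14% ± 2.72 titled ETBF and 1.05% ± 0.962 titled untreated (SD, n = 3 each), a difference of 6.08 percentage points. Clopper-Pearson 95% intervals, which cover counting error only, ran from 1.51% to 10.4% in the lowest ETBF library and from 0.0478% to 10.1% in the highest untreated library, so counting alone does not part those libraries. The interval of ETBF replicate 3, 6.04% to 15.3%, lay above those of untreated replicates 2 and 3, which ended at 4.50% and 2.93%. Summed, 32 of 421 miR-9 reads titled ETBF and 3 of 335 titled untreated were 3p. Leaving out any one library kept the difference between 4.65 and 7.36 percentage points.

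**Figure D2:**
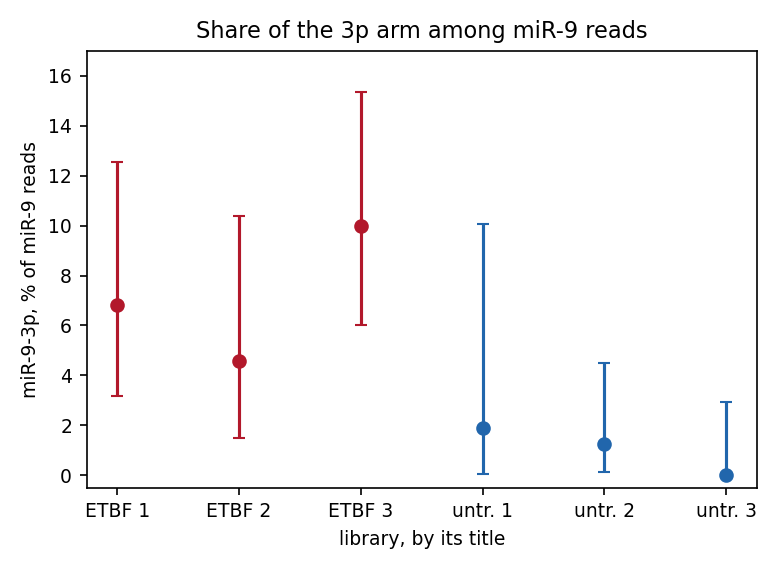
Share of miR-9-3p among the reads of both miR-9 arms, in percent, per library by title; points are shares, bars are exact 95% binomial intervals. The shares titled ETBF run from 4.59% to 10% and those titled untreated from 0% to 1.89%, and the interval of untreated replicate 1 reaches 10.1%.

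To set this beside other precursors, the share of the less abundant arm was computed for the 58 hairpins with at least 20 reads of both arms together in every library and at least 10 of the lesser arm over all libraries, limits set after the data were seen. Groups did not overlap for 22.4% of them, 13 hairpins, of which 9 or 15.5% were higher in libraries titled ETBF. miR-9 had the largest log2 odds ratio of the 58, at 2.99, followed by miR-182 at -1.84 and miR-151a at -1.42, whose groups overlapped. In percentage points it ranked 8, behind hairpins with more even arms such as miR-374a, whose lesser arm stood at 53.0% titled ETBF and 35.6% titled untreated. The odds ratio of miR-9 rests on 3 untreated reads of the 3p arm. miR-9 met the limit of 10 reads of the lesser arm through its 32 reads titled ETBF. Its place at the top of the 58 is therefore a description and no support. Among the other chosen hairpins only miR-146b had enough reads, with a log2 odds ratio of 0.51, and its groups overlapped.

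**Figure D3:**
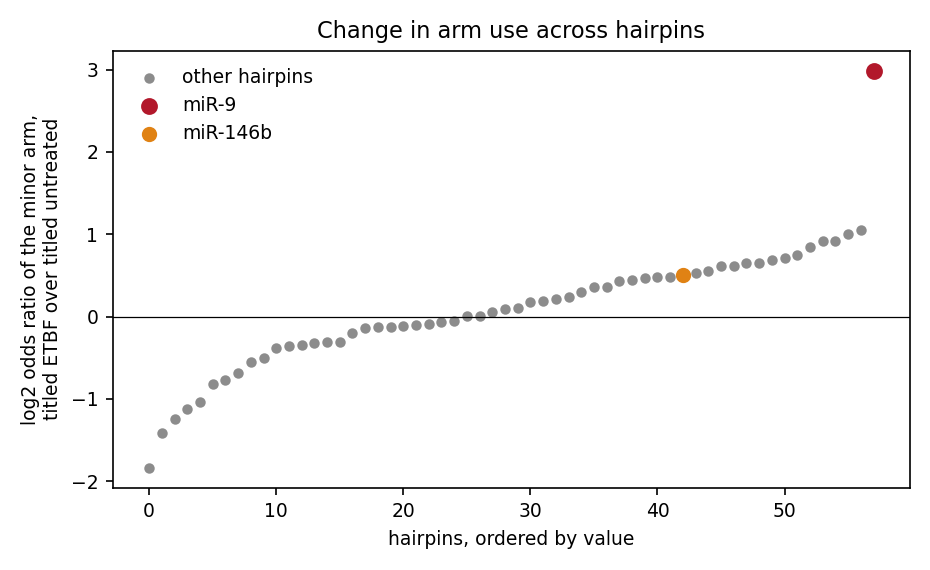
Log2 odds ratio of the less abundant arm, libraries titled ETBF over titled untreated, from summed reads with 0.5 added to each sum, for 58 hairpins in order of value. miR-9 is at 2.99, above every other hairpin shown, and miR-146b is at 0.51. miR-9 met the limit on reads of the lesser arm through its reads titled ETBF.

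miR-132 and miR-212 lie 262 bases apart on chromosome 17, on the minus strand and outside annotated genes of that strand in GENCODE release 29. miR-132-3p, whose known targets include the coactivator EP300 and, in mice, acetylcholinesterase, held 14, 30 and 34 counts in the libraries titled ETBF and 6, 13 and 11 in those titled untreated. In CPM these were 47.0, 134.9 and 105.0 titled ETBF, against 29.1, 35.8 and 35.1 titled untreated. The groups did not overlap, and 19.5% of tested entries were likewise higher without overlap. ETBF replicate 1 lay far nearer to the untreated libraries than did ETBF replicates 2 and 3. The mean was 95.6 ± 44.7 CPM titled ETBF and 33.3 ± 3.68 CPM titled untreated (SD, n = 3 each). The log2 fold change was 1.45 (SE 0.40, edgeR adjusted p = 0.0432), a 2.73-fold difference with a 95% interval of 1.46 to 5.12.

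That call stood close to the threshold. It was kept in 12 of 17 settings and lost with limma-voom (adjusted p = 0.0812), without ETBF replicate 2 (0.0973), without ETBF replicate 3 (0.154), without untreated replicate 2 (0.0765) and without untreated replicate 3 (0.0762). The log2 fold change stayed between 1.20 and 1.76 in all 17. Without ETBF replicate 1 it was 1.76 with an adjusted p of 0.00011. Without the structural-RNA entries it was 1.5 with an adjusted p of 0.0357.

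The partners of miR-132-3p were at the limit of detection. miR-212-3p, which carries its seed, had 2 counts in ETBF replicate 3 and 0 in the other 5 libraries. miR-212-5p held 2, 1 and 0 counts titled ETBF and 0, 0 and 1 titled untreated, and miR-132-5p held 0, 1 and 1 titled ETBF and 0, 0 and 2 titled untreated. None of these passed the filter for testing, and no fold is given because both groups lie under 3 counts in every library. When every entry with a count was tested, their edgeR adjusted p were 0.636 for miR-212-3p, 0.659 for miR-212-5p and 0.999 for miR-132-5p. Nearly all of what was seen of the cluster was thus 1 arm, with 108 counts of miR-132-3p against 4 of miR-132-5p, 2 of miR-212-3p and 4 of miR-212-5p over the 6 libraries.

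miR-146b-5p stood at 1134, 1322 and 1174 CPM in the libraries titled ETBF and at 1082, 1055 and 1041 CPM in those titled untreated. Each ETBF value lay above each untreated value, as was so for 19.5% of tested entries. The step was small, with a log2 fold change of 0.19 (SE 0.09, edgeR adjusted p = 0.173) and a 95% interval of 0.990- to 1.32-fold. miR-146a-5p, the feedback inhibitor of IRAK1 and TRAF6, stood at 540.3, 490.1 and 580.8 CPM titled ETBF and at 606.5, 556.3 and 606.6 CPM titled untreated. Its groups overlapped, and the log2 fold change was -0.13 (SE 0.11, adjusted p = 0.45), with an interval of 0.774- to 1.08-fold. Neither passed in any of 17 settings. By the titles, a rise of more than 1.32-fold lies outside both intervals.

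Summed over both, the seed they share was present at 1675, 1812 and 1755 CPM in the libraries titled ETBF and 1689, 1611 and 1647 CPM in those titled untreated, and the groups overlapped. miR-146b-5p made up 67.7%, 73.0% and 66.9% of the pair's reads titled ETBF and 64.1%, 65.5% and 63.2% of those titled untreated. For each read of miR-146a-5p there were 2.27 ± 0.370 reads of miR-146b-5p titled ETBF and 1.80 ± 0.0910 titled untreated (SD, n = 3 each), with no overlap between the groups. This ratio was looked at after the values were seen and was not tested. The exact intervals of the lowest ETBF share (62.9% to 70.8%) and the highest untreated share (61.5% to 69.3%) overlap. The pair differs only near the 3′ end, and how reads that stop short of base 18 were assigned is not stated in the sources used here.

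The other strands of these hairpins were scarce. miR-146b-3p held 2, 1 and 5 counts titled ETBF and 1, 4 and 0 titled untreated, at most 1.30% of the hairpin's reads in any library. miR-146a-3p had no count in any library, which allows up to 9.27 to 13.5 CPM titled ETBF and 8.26 to 14.6 CPM titled untreated. In GENCODE release 29 MIR146A overlaps an exon of MIR3142HG, and MIR146B lies outside annotated genes of its strand.

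miR-155-5p, the arm that represses SOCS1, was barely present. It held 8, 4 and 5 counts in the libraries titled ETBF and 1, 10 and 8 in those titled untreated, or 20.1 ± 5.98 CPM titled ETBF and 19.3 ± 12.6 CPM titled untreated (SD, n = 3 each). The groups overlapped, and it fell below the filter for testing. When every entry with a count was tested its log2 fold change was -0.08 (SE 0.54, edgeR adjusted p = 0.982), so that a difference was not detectable at this depth. miR-155-3p had no count. MIR155 overlaps an exon of MIR155HG, its host transcript, in GENCODE release 29.

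Other miRNAs linked to inflammation or NF-kappaB were read from a list of 18, of which 17 had counts and 14 could be tested. By edgeR 0 of the 14 passed, with 1 at an unadjusted p under 0.05, and DESeq2 and limma-voom also passed 0, with 1 and 2 at an unadjusted p under 0.05. Over all 195 tested entries, 66 were at an unadjusted p under 0.05 by edgeR. Of the 14, 6 were positive and 8 negative, against 94 positive and 101 negative of all tested entries. The median log2 fold change of the 14 was -0.06, against -0.03 over all 195. The one of the 14 at an unadjusted p under 0.05 by edgeR was miR-29b-3p, a repressor of collagens and DNA methyltransferases. Its log2 fold change was 0.41 (SE 0.13, edgeR adjusted p = 0.0601). It passed with counts divided by loci and the same entries tested, and without the structural-RNA entries, and miR-125a-5p was lower without ETBF replicate 1. Both were named after their values were seen. The most abundant were miR-21-5p, a repressor of the translation inhibitor PDCD4, at 88441 ± 3267 CPM titled ETBF and 90493 ± 1474 CPM titled untreated, then miR-99b-5p, encoded beside let-7e and miR-125a, at 1251 ± 38.5 CPM titled ETBF and 1363 ± 74.6 CPM titled untreated, and miR-221-3p, a repressor of the cell-cycle inhibitor p27, at 1016 ± 31.5 CPM titled ETBF and 891.4 ± 73.4 CPM titled untreated (SD, n = 3 each). Their log2 fold changes were -0.03 (SE 0.12), -0.13 (SE 0.08) and 0.18 (SE 0.09), and their edgeR adjusted p 0.851, 0.332 and 0.21.

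**Figure D4:**
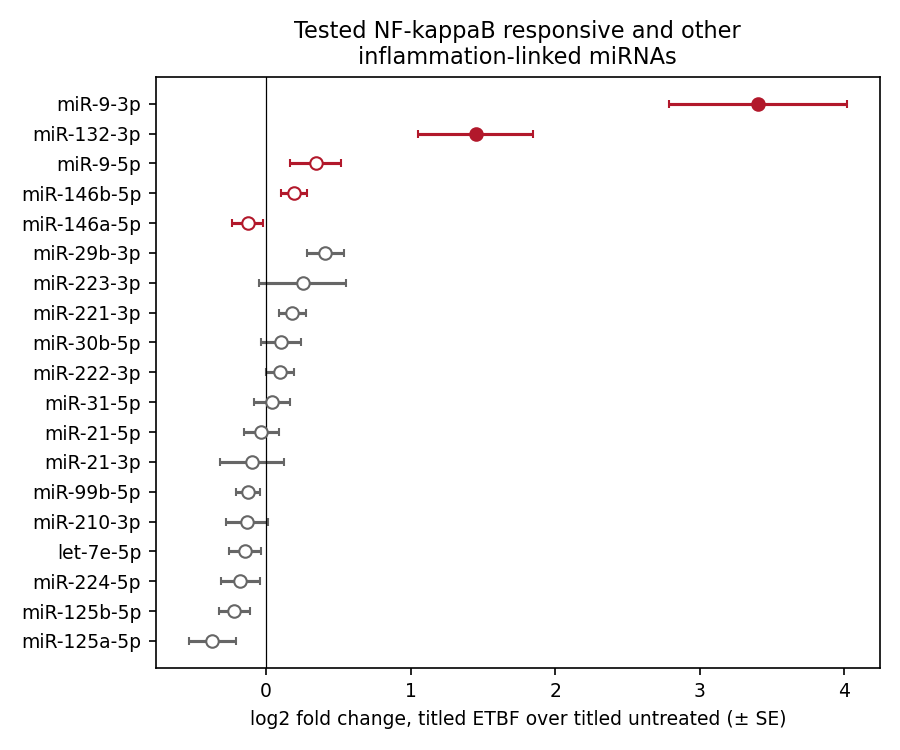
Log2 fold change, titled ETBF over titled untreated, with the standard error as bars, for the 5 tested arms (red) and 14 other tested inflammation-linked miRNAs (grey); filled points passed the adjusted p of 0.05. miR-9-3p at 3.40 and miR-132-3p at 1.45 are filled, and the other 17 lie between -0.37 and 0.41.

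miR-9 and miR-132 are abundant in neurones, and miR-146a and miR-155 in blood cells, so markers of both were read beside them. Of 8 neuronal miRNAs, 7 had counts, and they summed to 916.1 to 1061 CPM in libraries titled ETBF and 921.9 to 1165 CPM in those titled untreated. Most of that was miR-128-3p and miR-218-5p, which many tissues hold, with log2 fold changes of 0.02 (SE 0.14) and -0.22 (SE 0.12), edgeR adjusted p 0.898 and 0.265. The defining miR-124-3p had counts in 1 of 6 libraries, an untreated one with 3, and miR-137 had none. miR-129-5p, named after its values were seen, held 12, 14 and 10 counts titled ETBF and 2, 2 and 6 titled untreated, and it was too low for the main test. With every entry with a count tested, its log2 fold change was 1.88 (SE 0.52, edgeR adjusted p = 0.00571). In that fit miR-138-5p, miR-153-3p and miR-124-3p, also too low for the main test, were negative, at -1.17, -2.64 and -3.11. Their SE were 1.39, 2.25 and 2.14 and their edgeR adjusted p 0.642, 0.636 and 0.566. miR-219a-5p was at 0.03 (SE 2.07). miR-129-5p was past the threshold in 5 of the 6 settings that tested it, and not without untreated replicate 2, at 1.46 (edgeR adjusted p = 0.085). Apart from the fit of every entry with a count, those settings admitted it through its counts in libraries titled ETBF. The number of settings passed is therefore no support. Of 9 blood-cell miRNAs all had counts, summing to 535.1 to 719.9 CPM titled ETBF and 680.1 to 754.6 CPM titled untreated. By edgeR, DESeq2 or limma-voom 0 of 5 tested passed, with 1 at an unadjusted p under 0.05 in each, miR-142-5p. By edgeR 66 of all 195 tested entries were under that cut. Without ETBF replicate 1 miR-142-5p passed as lower. It stood at 183.7 ± 38.4 CPM titled ETBF and 257.4 ± 4.23 CPM titled untreated (SD, n = 3 each). The red-cell miRNAs miR-486-5p and miR-451a stood at 148.7 ± 46.3 and 123.1 ± 32.7 CPM titled ETBF, against 159.5 ± 17.2 and 131.2 ± 23.2 CPM titled untreated. The part of such cells in the levels of the 12 arms was not tested. In RNA of pooled vesicles, more copies per vesicle and a different mix of vesicles cannot be told apart.

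Of the 8 tested gut epithelial miRNAs, 1 was lower in libraries titled ETBF and none was higher. Over all 195 tested entries 14.4% were called, 3.59% lower and 10.8% higher, so 1 call is no result about the list. The lower one was miR-375, at 312.6 ± 35.4 CPM titled ETBF against 470.0 ± 95.2 CPM titled untreated (SD, n = 3 each). Its call (edgeR adjusted p = 0.0432) held in 10 of 17 settings and was lost with scaling by library size only (0.0688), DESeq2 (0.0503) and limma-voom (0.0513), and without ETBF replicate 2 (0.155), ETBF replicate 3 (0.154), untreated replicate 2 (0.138) or untreated replicate 3 (0.0727). The most abundant of that list were miR-192-5p and its cluster partner miR-194-5p, with log2 fold changes of -0.31 and -0.29, and miR-200b-3p, a repressor of ZEB1, with -0.03 (SE 0.09 each); their edgeR adjusted p were 0.0587, 0.0666 and 0.81. miR-192-5p was past the threshold in 2 of 17 settings, with DESeq2 (adjusted p = 0.0454) and without ETBF replicate 1 (edgeR, 0.013), and miR-194-5p in 1, without ETBF replicate 1 (edgeR, 0.00892).

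The tested entries most like each arm were taken by the mean absolute difference of log2 CPM, each profile centred on its own mean over the 6 libraries. Those nearest to miR-9-3p were miR-7-5p, miR-149 and miR-100-5p, at 0.52, 0.64 and 0.66, with log2 fold changes of 2.14, 2.59 and 1.81. A likeness to miR-9-3p over these 6 libraries fixes that direction, so these folds are a description. miR-132-3p lay nearest to miR-186-5p, miR-151a-3p and miR-651-5p, at 0.23, 0.29 and 0.30, with log2 fold changes of 1.14, 1.05 and 1.07. Their edgeR adjusted p were 0.000367, 0.0749 and 0.111, so miR-151a-3p and miR-651-5p did not pass the main test. Likeness fixes the direction here too. miR-9-5p lay nearest to miR-25-3p, miR-584-5p and miR-221-5p, at 0.12, 0.13 and 0.15, with log2 fold changes of 0.34, 0.30 and 0.06. None of them passed the main test (edgeR adjusted p 0.0939, 0.489 and 0.87). Neither arm of miR-9 was among the 3 nearest to the other. The same libraries and scaling lie behind all of these distances.

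**Figure D5:**
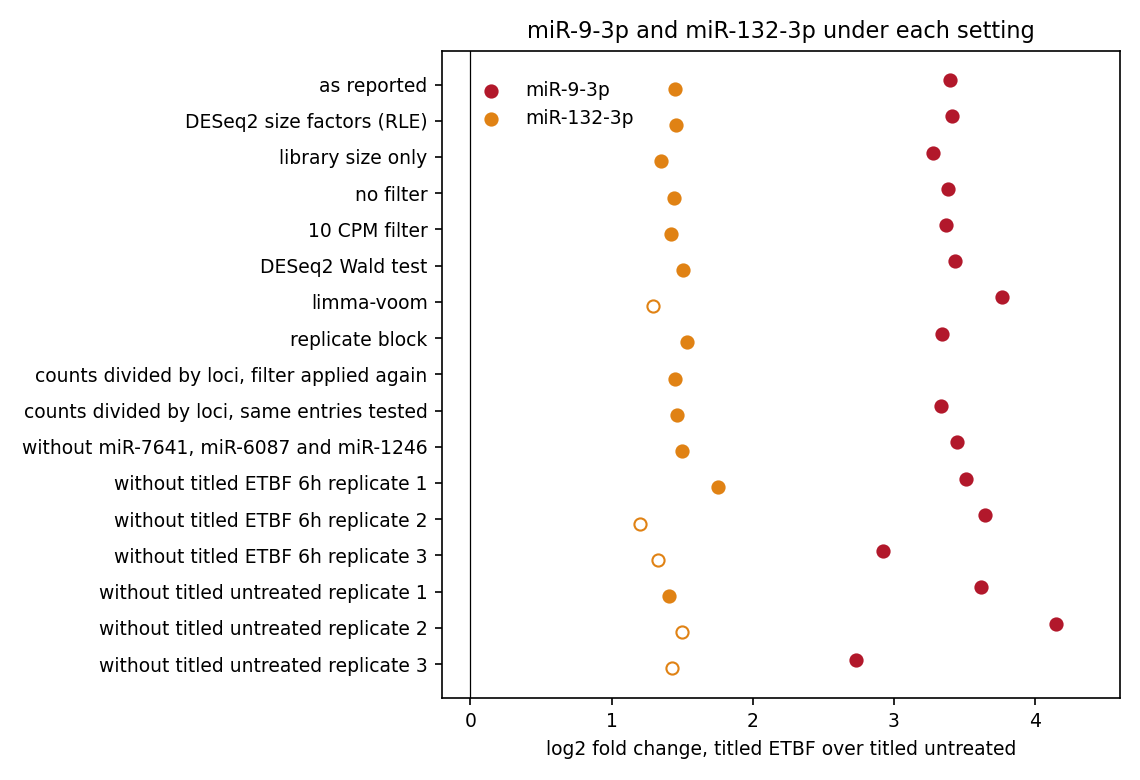
Log2 fold change of miR-9-3p (red) and miR-132-3p (orange), titled ETBF over titled untreated, under each setting; filled points have an adjusted p under 0.05 and open points do not. miR-9-3p is filled wherever it was tested, from 2.73 to 4.15, and miR-132-3p is open in 5 of 17 settings, from 1.20 to 1.76.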

How the data were processed

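Counts per mature miRNA entry were deposited by the authors, 1 whole-number table per library, not normalised. The tools named in the submitters' processing notes are Trimmomatic, FastQC and featureCounts, with build GRCh37.p5. Aligner, versions, miRNA annotation and handling of reads with several positions: not given in the sources used here. Groups follow the sample titles, which the file names contradict.

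Totals were 200207 to 417321 counts. Entries passing filterByExpr (minimum count 10) numbered 195 of 2575, scaled by TMM and tested with edgeR 4.0.16's quasi-likelihood F-test (R 4.3.3), two-sided, Benjamini-Hochberg over all tested entries, threshold 0.05. SE was derived from the log2 fold change and F, and 95% intervals use it. Intervals on reads are exact. Nothing states that replicates are separate cultures; p-values then reflect only how these libraries scatter, possibly a technical scatter. Replicates within a group differed beyond sampling noise (chi-square over degrees of freedom 12.2 to 131.9).

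Loci were counted by name in RefSeq (2260 of 2575 matched). Of 51 entries with several loci and a count, the 19 whose 6 counts were all whole multiples of their loci were divided, 7 of them tested. The RefSeq table is not complete, so other entries may be counted several times.

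Members and lists were chosen with earlier results of these data known. Named entries are all members, the 3 most abundant tested entries of each list and any past the threshold, 3 structural-RNA entries, and the 3 entries nearest in profile to miR-132-3p and each miR-9 arm. Alternatives were DESeq2 1.42.0 (size factors or Wald test), limma-voom (limma 3.58.1), no scaling, other filters, divided counts, structural entries left out, the replicate number as a block, and each replicate left out. The fits were tested on simulated data.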

Additional observations from a re-analysis of the deposited data

How the results depend on the processing

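Of the 17 settings, miR-9-3p passed in all 16 that tested it and miR-132-3p in 12, while miR-146a-5p and miR-146b-5p passed in none. For miR-9-3p, all of these but the divided fit used counts in which each read seems entered 3 times. The divided fit kept the entries that had passed the filter on those counts. No log2 fold change of the 5 tested arms changed sign. miR-132-3p had 1.30 with limma-voom, no longer past the threshold, and 1.20 to 1.76 with single replicates left out. miR-9-5p ranged from 0.18 to 0.49 with single replicates left out, and passed without ETBF replicate 1. The 28 calls over all entries became 51 with no filter on low counts, of which 24 were among the 28, and 17 to 59 with single replicates left out. The causes were not tested beyond the change in entries or libraries that each setting makes. Whether the sample numbers mark pairs is not settled: same-numbered libraries had deviations correlated at 0.18, 0.10 and 0.05. ETBF replicates 1 and 2 matched best with their own number, and ETBF replicate 3 with untreated replicate 2. The replicate block gave 38 calls, with miR-9-3p at 3.34, miR-132-3p at 1.54, miR-9-5p at 0.37 (adjusted p = 0.0502), miR-146b-5p at 0.19 and miR-146a-5p at -0.13, and changed no call among the 5 arms. Depth limits the untested arms, all of which held 10 counts or fewer in every library.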
